A study of Mus musculus with 384 samples.

Results

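Autophagy receptors and the LC3 family were measured as RNA in single cells from the spinal cord of Optn knockout mice, as 10 of the 23420 genes in the deposited table. The genes were chosen by name and function, with earlier results of these data known. The receptors are Optn, Sqstm1, Nbr1, Tax1bp1 and Calcoco1. The LC3 family genes are Map1lc3a, Map1lc3b, Gabarap, Gabarapl1 and Gabarapl2. All 10 have a row in the table, and 9 of them were above 0 in at least 1 cell.

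Selective autophagy receptors bind a cargo, often one tagged with ubiquitin, and at the same time bind LC3 family proteins on the growing autophagosome membrane. The short motif through which they do so is called the LC3-interacting region (LIR). LC3 family proteins are trimmed by ATG4 proteases behind a glycine near their end, and that glycine is then joined to the membrane lipid phosphatidylethanolamine. Optineurin, the product of Optn, is one such receptor for damaged mitochondria and bacteria and is phosphorylated by the kinase TBK1. Sqstm1 encodes p62, which gathers ubiquitinated proteins, and whose RNA is induced by the transcription factor NRF2 (gene Nfe2l2).

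Every cell carries the genotype label Optn KO, so both sides of each comparison share the knockout, whose effect cannot be read from them. The mice's age, strain and the knockout allele are not given in the labels used here. Per the labels, the tissue was dissociated with Accutase and freed of myelin, and cells stained for CD45, CD11b and CX3CR1 were sorted singly into plates for SmartSeq2, a full-length cDNA method. Of 384 labelled cells, 326 have a column in the table and the other 58 were not analysed here; plates 1 and 2 are replicate 1 and plates 3 and 4 replicate 2. The labels do not say that the replicates came from separate mice, so the spread between them may be technical.

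The series title calls the sorted cells microglia, and the data go against that name. P2ry12, a defining microglial receptor, was above 0 in 2 of 326 cells, and Sall1, C1qc, Fcrls and Slc2a5, from the same list of 14 markers, were at 0 in all cells. Cells with S100a8 plus S100a9 of at least 10000 TPM (this unit scales transcripts by length and sets the total of each cell to 1000000) are called neutrophils here, since these 2 calcium-binding proteins are abundant in that cell type. There were 286 neutrophils, 131 in replicate 1 and 155 in replicate 2. Of neutrophil markers that neither the threshold nor the granule genes used below include, Cxcr2 was above 0 in 278 of them, Mmp9 in 274, Csf3r in 267 and Retnlg in 250. Among the other 40 cells these were above 0 in 35, 10, 30 and 9. These other cells, 23 and 17 in the replicates, were mixed but mostly carried monocyte markers. At least 3 of 12 monocyte markers were above 0 in 31 of them and at least 5 in 28, with a median of 10. At least 5 of 11 neutrophil markers were above 0 in 13, with a median of 4. At least 3 B cell markers were above 0 in 2 of these cells, at least 3 T or NK cell markers in 3, and at least 5 of 12 proliferation genes in 10. Of the 14 microglial markers, 7 were above 0 in some neutrophil and 6 in some other cell, with medians of 0 and 1 per cell. Their summed means were 169 TPM in neutrophils and 512 TPM in the other cells. At least 3 of them were above 0 in 1 neutrophil and in 0 other cells. Cells just below the threshold had 2629 to 4019 TPM of the 2 genes and cells just above it 12512 to 18099 TPM. Neutrophils had a median of 1604.5 genes above 0 and the other cells 3027.5, so shares of cells above 0 are not on an equal footing between the classes.

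Optn, on chromosome 2 (chr2:5020642-5064051, minus strand, GRCm38/mm10; ENSMUSG00000026672.11), was listed at 0 in all 286 neutrophils and in all 40 other cells. A count of 0 allows a share of up to 1.05% of neutrophils and 7.5% of other cells with a value above 0 (3 cells of the total, counting error only); the exact 95% binomial upper limits are 1.28% and 8.81%. Genes that nearly all cells use were also at 0 in some cells, with Gapdh at 0 in 8 and Ppia in 159 of 326. The zeros describe the labelled genotype and are not a comparison.

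The LIR of the receptors is shown because it is the stretch by which Optn and the receptors still present in these cells would meet the same LC3 family proteins. The capitals mark the 4 codons of the LIR core, starting at residue 188 of Optn, 340 of Sqstm1 and 750 of Nbr1, in coding sequence of the GENCODE transcripts for GRCm38, 5′ to 3′.
Optn: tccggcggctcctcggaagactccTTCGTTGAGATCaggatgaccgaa
Sqstm1: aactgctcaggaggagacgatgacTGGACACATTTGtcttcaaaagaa
Nbr1: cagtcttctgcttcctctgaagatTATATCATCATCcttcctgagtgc

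Of the receptors other than Optn, Sqstm1 and Tax1bp1 were widespread and Nbr1 and Calcoco1 sparse. Sqstm1 (chr11:50199366-50210827, minus strand) averaged 460 TPM over the neutrophils of replicate 1 and 420 TPM in replicate 2, and was above 0 in 189 of 286 neutrophils (66.1%, exact 95% binomial interval 60.3 to 71.6%). In the other cells it averaged 369 and 597 TPM and was above 0 in 31 of 40. The neutrophil values lie between those of the other cells, so the classes overlap. Tax1bp1 (chr6:52713729-52766780, plus strand), a receptor for protein aggregates that also acts with the NF-κB inhibitor A20, averaged 195 and 234 TPM in neutrophils and 215 and 251 TPM in the other cells. It was above 0 in 159 of 286 neutrophils (55.6%) and 27 of 40 other cells (67.5%). The classes overlap here as well.

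Nbr1 (chr11:101552149-101581951, plus strand), a p62-like receptor with roles in aggregate and peroxisome clearance, averaged 39.2 and 26.3 TPM in neutrophils against 52.4 and 88.9 TPM in the other cells. It was above 0 in 67 of 286 neutrophils (23.4%) and 16 of 40 other cells (40.0%). Its values in neutrophils were below those in the other cells in both replicates, while over plates the classes overlap (24.7 to 43.4 TPM against 31.4 to 140 TPM). Calcoco1 (chr15:102706777-102722178, minus strand), which in human cells has been described as a receptor for the endoplasmic reticulum and Golgi, averaged 15.2 and 16.0 TPM in neutrophils and 12.1 and 19.7 TPM in the other cells. Few cells carried it, 33 of 286 neutrophils and 6 of 40 other cells.

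Together the receptors summed to 709 and 696 TPM in the neutrophils of the 2 replicates. Sqstm1 made up 62.6% ± 3.21 (SD, n = 2) of that sum, Tax1bp1 30.5% ± 4.34, Nbr1 4.65% ± 1.24 and Calcoco1 2.22% ± 0.105. The same order held in the other cells, where Sqstm1 made up 59.7% ± 3.90 and Tax1bp1 29.7% ± 4.90 of 649 and 957 TPM. Per cell, a median of 2 of the 5 receptors was above 0 in each class. No receptor was above 0 in 43 of 286 neutrophils (15.0%) and in 4 of 40 other cells (10%). Sqstm1 and Tax1bp1 were both above 0 in 118 neutrophils.

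The ends of the LC3 family coding sequences are shown because the proteins differ there in what ATG4 removes. The capitals mark the codon of the last glycine, residue 120 in Map1lc3a and Map1lc3b and residue 116 in the GABARAP genes, and each sequence ends with the stop codon (GENCODE transcripts for GRCm38, 5′ to 3′).
Map1lc3a: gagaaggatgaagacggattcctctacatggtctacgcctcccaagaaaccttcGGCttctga
Map1lc3b: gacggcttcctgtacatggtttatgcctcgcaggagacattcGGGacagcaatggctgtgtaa
Gabarap: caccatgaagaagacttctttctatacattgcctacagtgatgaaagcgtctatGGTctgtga
Gabarapl1: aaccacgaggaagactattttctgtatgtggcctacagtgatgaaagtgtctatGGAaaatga
Gabarapl2: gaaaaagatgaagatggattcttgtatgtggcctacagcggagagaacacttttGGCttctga
Map1lc3b codes for 5 residues behind that glycine and each of the other genes for 1. The proteins of Map1lc3a and Map1lc3b are identical at 79.2% of aligned residues and those of Gabarap and Gabarapl1 at 86.3%, whereas Map1lc3b and Gabarap share 29.6%. At the level of coding bases, the longest run shared by any pair within the family is 17 bases, between Gabarap and Gabarapl1.

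Among the LC3 family, Gabarap and Map1lc3b carried most of the RNA. Gabarap (chr11:69991143-69994951, plus strand) averaged 837 TPM in the neutrophils of replicate 1 and 836 TPM in replicate 2, with 666 and 683 TPM in the other cells. It was above 0 in 264 of 286 neutrophils (92.3%, interval 88.6 to 95.1%) and 37 of 40 other cells (92.5%). Both neutrophil values lie above both values of the other cells, although single plates of the other cells ran from 372 to 1031 TPM. Map1lc3b (chr8:121590361-121598760, plus strand), the LC3 protein most often used as an autophagosome marker, averaged 799 and 748 TPM in neutrophils and 623 and 409 TPM in the other cells. It was above 0 in 230 of 286 neutrophils (80.4%, interval 75.3 to 84.9%) and 32 of 40 other cells (80.0%). The neutrophil values are the higher ones in both replicates, but the classes overlap over plates, and on plate 2 they stood at 806 and 803 TPM.

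Gabarapl2 (chr8:111940703-111953612, plus strand), also known as GATE-16, averaged 269 and 310 TPM in neutrophils and 184 and 195 TPM in the other cells. About equal shares of cells carried it, 136 of 286 neutrophils (47.6%) and 19 of 40 other cells (47.5%). Map1lc3a (chr2:155276297-155278073, plus strand) averaged 30.5 and 28.8 TPM in neutrophils and 7.13 and 37.3 TPM in the other cells. It was above 0 in 37 of 286 neutrophils and 4 of 40 other cells, and the classes overlap.

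Gabarapl1 (chr6:129533160-129542346, plus strand), the close relative of Gabarap, was the rarest of the genes that were above 0 at all in neutrophils. It averaged 7.55 and 3.87 TPM there and 39.3 and 22.8 TPM in the other cells. Only 8 of 286 neutrophils had a value above 0 (2.80%, interval 1.22 to 5.44%), against 11 of 40 other cells (27.5%, interval 14.6 to 43.9%). Among cells with 1500 to 3000 genes above 0, the shares were 5 of 169 neutrophils (2.96%) and 2 of 15 other cells (13.3%), and the intervals overlap (0.967 to 6.77% and 1.66 to 40.5%). Of the 50-base runs in its transcripts, 23.1% also occur in 1700101I11Rik, which was at 0 in all neutrophils and above 0 in 1 other cell.

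**Figure D1:**
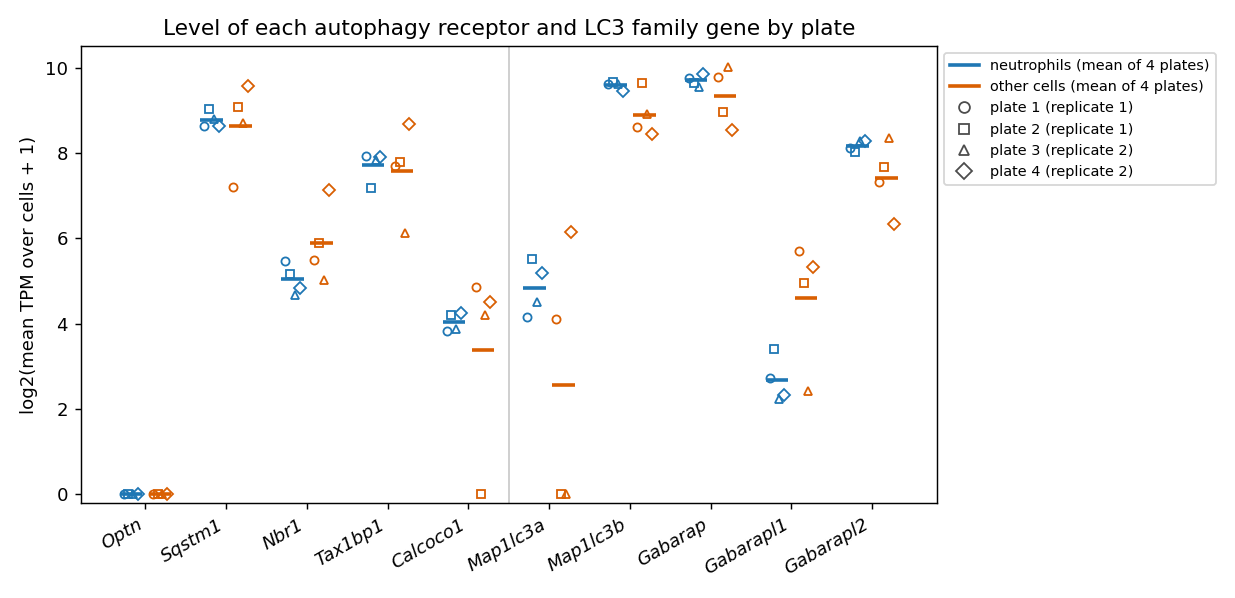
Level of each gene as log2(mean TPM over cells + 1) on the y axis, for neutrophils (blue) and other cells (orange) of each of 4 plates (symbols), with the mean of the plates as a bar. Optn is at 0 on every plate, neutrophil plates lie close together for Map1lc3b (706 to 806 TPM) and Gabarap (751 to 920 TPM), and plates of the other cells, which hold 8 to 13 cells each, are spread more widely.

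Ordered by mean TPM in neutrophils, the genes ran Gabarap (837), Map1lc3b (774), Sqstm1 (440), Gabarapl2 (289), Tax1bp1 (214), Nbr1 (32.7), Map1lc3a (29.6), Calcoco1 (15.6), Gabarapl1 (5.71) and Optn (0). Over the 4 plates, the ranges of Gabarap and Map1lc3b overlap, as do those of Nbr1 and Map1lc3a and those of Map1lc3a and Calcoco1. Plate ranges of the other neighbours in this order do not overlap. Among 13069 genes above 0 in any neutrophil, Gabarap ranked 142 by mean TPM, Map1lc3b 152 and Sqstm1 259, whereas Gabarapl1 ranked 5989. In the other cells the order differed by Tax1bp1 (233 TPM) standing before Gabarapl2 (189 TPM) and Gabarapl1 (31.0 TPM) before Map1lc3a (22.2 TPM) and Calcoco1 (15.9 TPM), but there plate ranges overlap between all neighbours.

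LC3 family RNA summed to 1943 and 1927 TPM in the neutrophils of the 2 replicates and to 1518 and 1347 TPM in the other cells. In neutrophils Gabarap made up 43.2% ± 0.218 (SD, n = 2) of this sum, Map1lc3b 40.0% ± 1.61, Gabarapl2 15.0% ± 1.58, Map1lc3a 1.53% ± 0.0549 and Gabarapl1 0.295% ± 0.133. In the other cells Gabarap made up 47.3% ± 4.83, Map1lc3b 35.7% ± 7.49 and Gabarapl1 2.14% ± 0.636. Only 5 of 286 neutrophils had no LC3 family gene above 0, and 214 had both Map1lc3b and Gabarap.

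**Figure D2:**
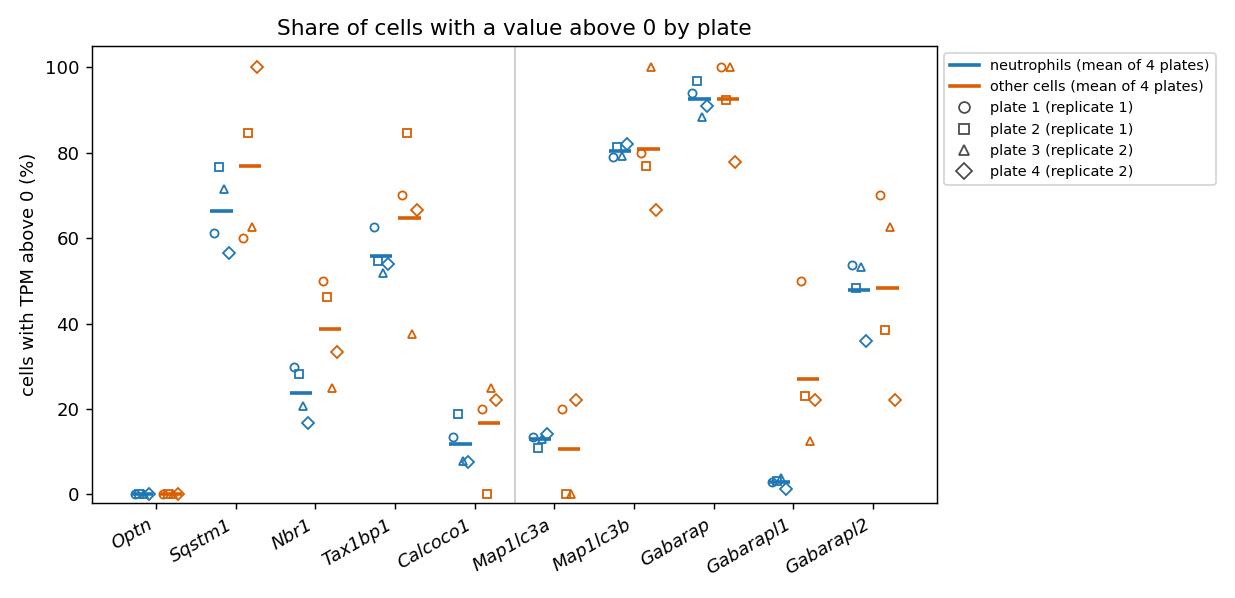
Percentage of cells with TPM above 0 on the y axis for each gene, in neutrophils (blue) and other cells (orange) of each of 4 plates (symbols), with the mean of the plates as a bar. Gabarap and Map1lc3b are above 0 in most cells of both classes, and Gabarapl1 is the gene with few neutrophils (1.28 to 3.90% per plate) and more of the other cells (12.5 to 50% per plate).

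The classes were compared by averaging TPM over the cells of each class and replicate and fitting limma to the 4 averages on the log2(mean TPM + 1) scale. Replicate was a block, and p-values were adjusted by Benjamini-Hochberg over 7091 genes. A gene was called at an adjusted p under 0.05. No member was called in either direction, where 5.23% of all genes tested were higher in neutrophils and 17.4% were lower. Unadjusted, 2 members had a limma p under 0.05, Map1lc3b and Gabarapl1, where 2612 of all 7091 genes had one. Of the 10 members, 9 passed the filter on low values and Optn did not. The median log2 fold of all genes tested was -0.61, and it was -0.21 after rescaling TPM without S100a8, S100a9, the specific granule genes and Rn45s.

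Map1lc3b had a log2 fold of 0.61 ± 0.26 (SE; limma adjusted p = 0.10), higher in neutrophils on 4 of 4 plates. Its fold was 0.92 with an adjusted p of 0.0348 after that rescaling, and 1.07 with an adjusted p of 0.0432 against only the other cells with at least 3 monocyte markers. Among cells with 1500 to 3000 genes above 0 it was -0.20 (adjusted p = 0.775), and with the threshold at 50000 TPM it was -0.02 (adjusted p = 0.960). Gabarapl1 had a log2 fold of -2.26 ± 0.85 (limma adjusted p = 0.0717), lower in neutrophils on 4 of 4 plates, and -1.44 with an adjusted p of 0.00470 when log2(TPM + 1) was averaged over cells.

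The remaining folds between classes were within the error or missed the threshold. Gabarapl2 had a log2 fold of 0.61 ± 0.35 (limma adjusted p = 0.219) and Gabarap 0.31 ± 0.23 (adjusted p = 0.354). Nbr1 had a log2 fold of -1.07 ± 0.63 (limma adjusted p = 0.238). Sqstm1 (-0.10 ± 0.30), Tax1bp1 (-0.12 ± 0.35), Calcoco1 (0.01 ± 0.82) and Map1lc3a (0.79 ± 0.82) had limma adjusted p-values from 0.519 to 0.996, and the rescaling turned the folds of Sqstm1 (0.25) and Tax1bp1 (0.24) positive.

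Neutrophils differ among themselves in the RNA of their specific granules, storage organelles whose proteins are made during maturation in the bone marrow. Within each plate, neutrophils were ranked by the mean z-score of 8 specific granule genes (among them Ltf, Camp, Ngp and Lcn2), adjusted for genes above 0 per cell, and divided into 3 classes of equal size. The highest class (97 granule-high cells) and the lowest (94 granule-low cells) were compared by the same limma fit, over 5435 genes and without the granule genes. The score is continuous, and 67 cells lie near the upper and 48 near the lower limit. Granule-high cells had a median of 1772 genes above 0 and granule-low cells 1427.5. Of the 94 granule-low cells, 91 had Cxcr2, 85 Mmp9, 92 Csf3r and 75 Retnlg above 0. Cxcr2 and Csf3r were above 0 in most of the other cells too, so they separate the classes little. At least 5 B cell markers were above 0 in 2 granule-low and 0 granule-high cells, and at least 3 dendritic markers in 2 and 0.

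Map1lc3b RNA was lower in granule-high than in granule-low neutrophils. Gabarap RNA was also lower, by a smaller fold whose call did not hold after the rescaling. Map1lc3b averaged 371 and 359 TPM in the granule-high cells of the 2 replicates and 1124 and 1153 TPM in the granule-low cells. The groups are far apart, on single plates too, with 345 against 942 TPM on plate 1, 399 against 1315 on plate 2, 347 against 1330 on plate 3 and 371 against 983 on plate 4. Its log2 fold was -1.64 ± 0.24 (SE, n = 2 replicates; limma adjusted p = 4.43e-06), against a median of -0.38 over all genes tested. After the rescaling, which brought that median to -0.03, the fold was -1.22 (adjusted p = 0.00320). The share of cells above 0 was 77.8 and 61.5% in granule-high and 83.7 and 90.2% in granule-low cells of the 2 replicates, a difference that is small in replicate 1.

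Gabarap averaged 648 and 649 TPM in granule-high cells and 1103 and 997 TPM in granule-low cells, and was the lower in granule-high cells on 4 of 4 plates. Its log2 fold was -0.69 ± 0.22 (limma adjusted p = 0.0331). That call held in 3 of 12 alternatives with a test (adjusted p from 0.00942 to 0.989), and after the rescaling the fold was -0.24 (adjusted p = 0.607). As a mean of log2(TPM + 1) over cells, the fold was 0.01; Gabarap was above 0 in 97.8 and 86.5% of granule-high and in 93.0 and 82.4% of granule-low cells of the 2 replicates.

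No other member was called within neutrophils, so the count was 2 lower and 0 higher of 8 tested, where 9.31% of all genes tested were lower and 2.32% higher in granule-high cells. Sqstm1 averaged 453 and 399 TPM in granule-high and 485 and 535 TPM in granule-low cells (log2 fold -0.26 ± 0.28, limma adjusted p = 0.623). Its direction differed between plates, lower in granule-high cells on plates 2 and 4 and higher on plates 1 and 3. Tax1bp1 (-0.26 ± 0.38), Gabarapl2 (-0.20 ± 0.35) and Calcoco1 (0.30 ± 0.92) were as close to 0 relative to their error, with adjusted p-values from 0.742 to 0.892. Nbr1 (-1.27 ± 0.74, adjusted p = 0.314) and Map1lc3a (-1.10 ± 0.76, adjusted p = 0.415) had wide errors.

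Gabarapl1 did not pass the filter, and averaged 0 and 1.77 TPM in granule-high against 21.6 and 9.51 TPM in granule-low cells, from very few cells. Optn was at 0 in both groups.

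**Figure D3:**
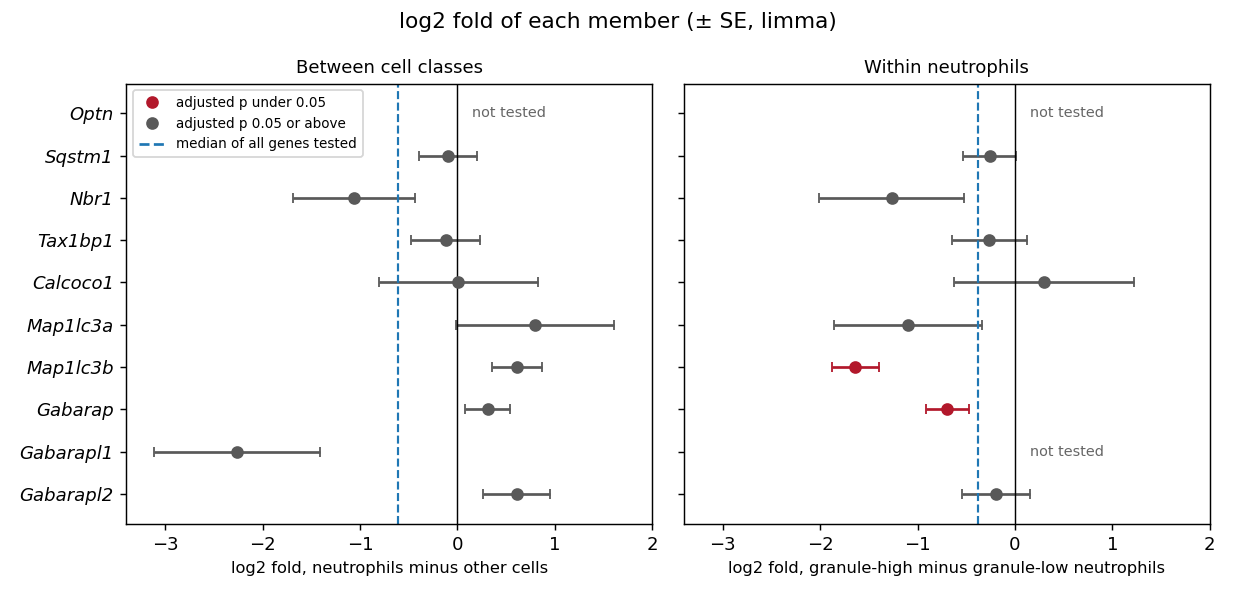
log2 fold of each gene ± SE from limma, between neutrophils and other cells (left, positive is higher in neutrophils) and between granule-high and granule-low neutrophils (right, positive is higher in granule-high cells); the dashed line is the median of all genes tested. Red points have an adjusted p under 0.05: Map1lc3b (-1.64) and Gabarap (-0.69) on the right and none on the left.

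**Figure D4:**
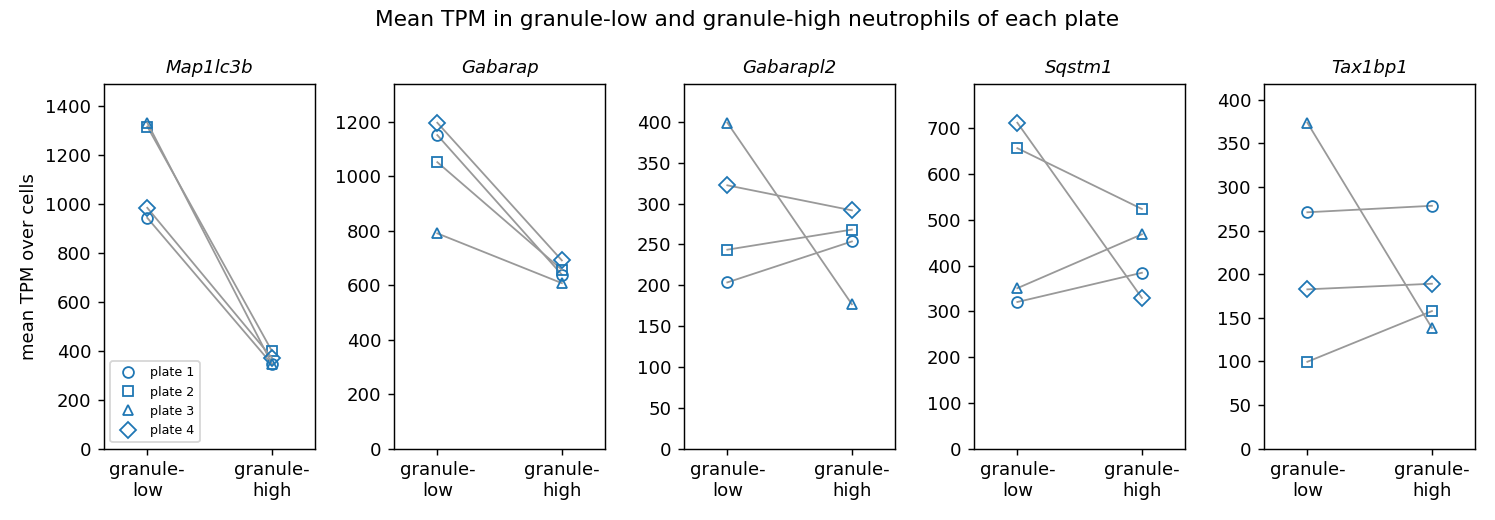
Mean TPM over granule-low and granule-high neutrophils of each plate (symbols joined by a line per plate; each panel starts at 0 and has its own scale). Lines fall on all 4 plates for Map1lc3b and Gabarap, whereas they cross for Gabarapl2, Sqstm1 and Tax1bp1.

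Other gene groups moved along the same split, and their part in the Map1lc3b and Gabarap results was not tested. Of all genes tested, 9.31% were lower and 2.32% higher in granule-high cells. Of 14 immediate early genes tested (transcription factors and feedback genes that rise quickly on stimulation or handling), 11 were lower and 0 higher in granule-high cells, and the 16 listed genes summed to 8748 TPM there and 36361 TPM in granule-low cells. Of 11 inflammatory genes tested, 6 were lower and 0 higher, among them Il1b at 849 against 15529 TPM. Of 12 proliferation genes tested, 7 were lower and 0 higher, with a summed 31.8 TPM in granule-high and 610 TPM in granule-low cells. The median cell of each group had 1 of them above 0, and at least 5 were above 0 in 1 of 97 granule-high and 14 of 94 granule-low cells. After the rescaling, 9 immediate early, 6 inflammatory and 5 proliferation genes were called lower. With log2(TPM + 1) averaged over cells, 7 immediate early, 3 inflammatory and 0 proliferation genes were called lower. Without the neutrophils that had at least 3 proliferation genes above 0, Map1lc3b had a log2 fold of -1.25 (limma adjusted p = 3.70e-04). Among neutrophils with 1500 to 3000 genes above 0, it was -1.37 (adjusted p = 0.0117) and that of Gabarap -0.49 (adjusted p = 0.422).

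Mean TPM of Map1lc3b and Gabarap was lower in neutrophils with more genes above 0. Neutrophils of each plate were divided into 3 classes of equal size by that number, with medians of 1319.5, 1588 and 2115 genes. Mean TPM of Map1lc3b went from 1104 ± 72.5 (SD, n = 2) in the lowest class over 893 ± 47.6 to 337 ± 1.52 in the highest, while the share of cells above 0 was 78.7%, 83.2% and 79.4%. Gabarap went from 1093 ± 38.4 over 851 ± 16.2 to 575 ± 45.6 TPM. The shares of Sqstm1 (51.1, 65.3 and 81.4%), Tax1bp1 (39.4, 51.6 and 75.3%) and Gabarapl2 (30.9, 49.5 and 61.9%) were higher in classes with more genes above 0. Mean TPM of Sqstm1 went from 529 ± 122 over 447 ± 57.9 to 347 ± 23.3. In replicate 2 alone, Sqstm1 was highest in the middle class (442, 488 and 330 TPM). Mean TPM of Tax1bp1 (206, 240 and 196 TPM) and Gabarapl2 (288, 337 and 244 TPM) was highest in the middle class.

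**Figure D5:**
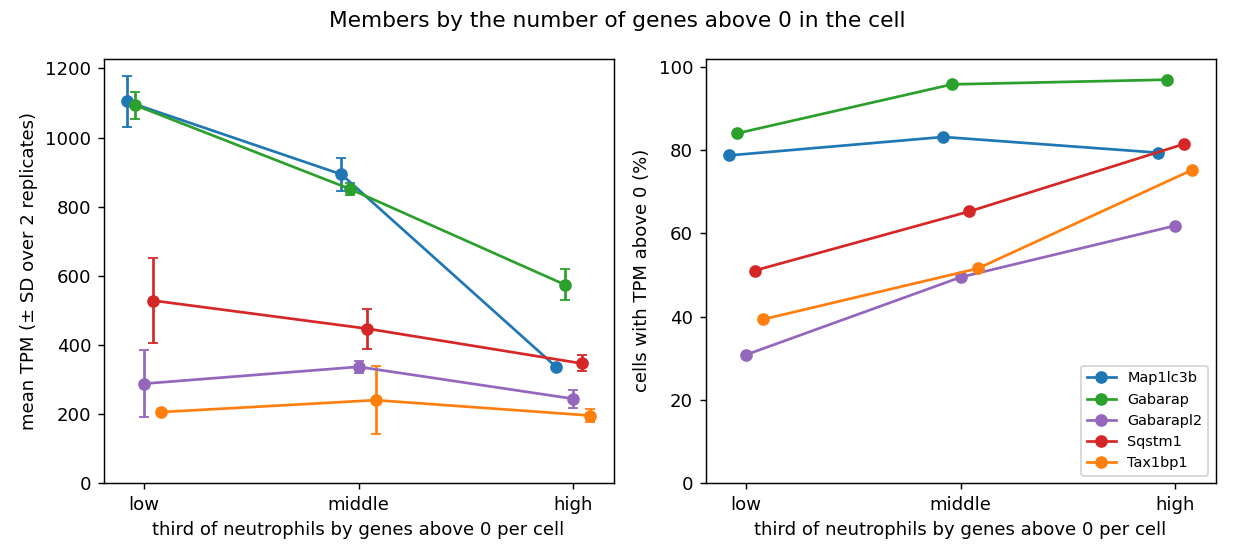
Mean TPM ± SD over 2 replicates (left) and percentage of cells with TPM above 0 (right) for the 5 genes above 0 in at least 25% of neutrophils, by class of genes above 0 per cell (x axis; low, middle and high, medians of 1319.5, 1588 and 2115 genes). Map1lc3b and Gabarap are lower in TPM toward the high class, as is Sqstm1 with a wide spread between replicates in the low class. The shares of Sqstm1, Tax1bp1 and Gabarapl2 are higher in the high class.

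Across neutrophils of a plate, correlations between members were weak. Spearman correlations of log2(TPM + 1), not adjusted for genes above 0, were taken over 64 to 78 cells that share a plate and its depth range. They were 0.32, 0.25, 0.19 and 0.07 on the 4 plates for Map1lc3b with Gabarap. Both genes also correlated negatively with the number of genes above 0 on each plate (means of -0.33 and -0.25). Sqstm1 with Map1lc3b gave 0.20, 0.31, -0.20 and -0.08. With the specific granule score, where only the score was adjusted, Map1lc3b gave -0.23, -0.35, -0.46 and -0.22, and Gabarap -0.19, -0.13, -0.11 and -0.28. In values this sparse, correlations of that size are a description only.

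Correlations with other genes were computed after adjusting both genes for genes above 0 per cell. Of 2254 genes above 0 in at least 25% of neutrophils, those with the highest mean correlation with Map1lc3b over the 4 plates were Ftl1 (ferritin light chain, 0.40), Ccl6 (a chemokine, 0.33) and H2-D1 (an MHC class I heavy chain, 0.32). Ftl1 (0.31) also stood first for Gabarap, before Pgd (0.31) and Prkar1a (0.29). For Sqstm1 they were Il17ra (0.28), Itgam (0.21), which encodes CD11b, and Fyb (0.21), for Tax1bp1 Tmem59 (0.22), Rcsd1 (0.20) and Zyx (0.20), and for Gabarapl2 Rps9 (0.24), Slc35e1 (0.23) and Ilk (0.22). Single plates spread widely about these means, for Gabarapl2 with Ilk from -0.11 to 0.39 and with Slc35e1 from 0.11 to 0.49.

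Of 10 other receptors of selective autophagy tested between neutrophils and other cells, 2 were higher and 1 lower, where 5.23% of all genes were higher and 17.4% lower. Ccpg1, a receptor for the endoplasmic reticulum, averaged 799 TPM in neutrophils and 228 TPM in the other cells (log2 fold 1.84 ± 0.29, limma adjusted p = 5.48e-04). Ncoa4, the receptor for ferritin, averaged 384 against 140 TPM (1.64 ± 0.41, limma adjusted p = 0.0131), and Fundc1, a mitochondrial receptor, averaged 13.2 against 113 TPM (-3.15 ± 0.73, limma adjusted p = 0.00848). Among cells with 1500 to 3000 genes above 0 (169 neutrophils and 15 other cells), 3 of 5660 genes tested were called higher and 0 lower. The call of Fundc1 was thus lost there. Fam134b, now named Retreg1 and a receptor for the endoplasmic reticulum, went opposite ways in the replicates, at 27.2 against 0 TPM in replicate 1 and 23.3 against 56.7 TPM in replicate 2. Its fitted log2 fold of 1.79 ± 1.41 (limma adjusted p = 0.410), a mean of the 2 logs, thus has another sign than the means of 25.3 and 28.3 TPM.

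Within neutrophils 1 of 10 was higher and 2 were lower in granule-high cells, where 2.32% of all genes were higher and 9.31% lower. Ncoa4 was higher, at 514 against 224 TPM (log2 fold 1.21 ± 0.31, limma adjusted p = 0.00785). Ccpg1 was lower, at 454 against 1092 TPM (-1.26 ± 0.23, limma adjusted p = 1.76e-04), as was the mitochondrial receptor Bnip3, at 32.9 against 137 TPM (-2.17 ± 0.57, limma adjusted p = 0.00832), a call that was lost after the rescaling (adjusted p = 0.0641). Fam134b averaged 17.8 against 36.9 TPM (-1.26 ± 0.82, limma adjusted p = 0.373).

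Genes of the LC3 conjugation machinery, which trim LC3 family proteins and join them to lipid, were called once in each comparison, a count near the shares of all genes just given. Atg16l2 was the 1 gene of 11 tested that was higher in neutrophils than in other cells, at 83.4 against 16.1 TPM (log2 fold 2.82 ± 0.81, limma adjusted p = 0.0263), and none was lower. Atg5, Atg12 and Atg4c, the others with large folds, had adjusted p-values from 0.159 to 0.388. Atg12 went opposite ways in the replicates, at 34.7 against 81.0 TPM in replicate 1 and 31.9 against 0 TPM in replicate 2. Its positive fitted fold thus has another sign than its means of 33.3 and 40.5 TPM. Atg5 stood at 40.9 against 40.1 TPM in replicate 1 and 89.0 against 0 TPM in replicate 2. Atg3, the enzyme that hands LC3 family proteins to the lipid, was the 1 gene of 11 that was lower in granule-high cells, at 112 against 310 TPM (-1.40 ± 0.40, limma adjusted p = 0.0166), and it lost the call after the rescaling (adjusted p = 0.143). Wipi2, Atg4c and Atg16l1 had adjusted p-values from 0.332 to 0.707 there. The median log2 fold of the 11 genes was 0.73 between the classes and -0.19 within neutrophils, where all genes gave -0.61 and -0.38; after the rescaling the median within neutrophils was 0.22.

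Of 14 initiation genes tested between the classes, which start the autophagosome, Atg14 alone was called, lower in neutrophils at 2.03 against 57.2 TPM (log2 fold -3.46 ± 1.07, limma adjusted p = 0.0358). Of all genes tested, 17.4% were lower. Atg14 was above 0 in only 14 cells, and the other cells averaged 9.46 TPM in replicate 1 and 105 TPM in replicate 2. Its call was lost after the rescaling (limma adjusted p = 0.0918), and also among cells with 1500 to 3000 genes above 0, where no gene was called lower. Atg2a, Nrbf2 and Uvrag followed by size of fold, with adjusted p-values from 0.272 to 0.399, and Uvrag was called lower when logs were averaged (adjusted p = 0.0495). Within neutrophils none of 12 was called, with Ulk1, Atg13, Nrbf2 and Ambra1 at adjusted p-values from 0.188 to 0.535.

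Partners of optineurin, among them TBK1, RAB8 and the ubiquitin chain machinery of TNF signalling, gave 0 calls of 15 tested between the classes by limma. Of the 15, 1 had an unadjusted p under 0.05, where 2612 of all 7091 genes tested between the classes had one. Ikbke, Cyld, Ikbkg and Rbck1 had the largest folds there, with adjusted p-values from 0.0647 to 0.310, and Rbck1 was called lower when log2(TPM + 1) was averaged over cells (-3.09, adjusted p = 1.27e-06). Within neutrophils 2 of 15 were lower in granule-high cells and none higher. Plk1, a mitotic kinase, averaged 0 against 29.6 TPM and is listed at 0 in all granule-high cells (limma adjusted p = 0.00789). Rab8a, a small GTPase of membrane traffic, averaged 182 against 403 TPM (log2 fold -1.13 ± 0.34, limma adjusted p = 0.0239), a call that was lost after the rescaling (adjusted p = 0.167). Of all genes tested, 9.31% were lower there. Ripk1, Tank and Ikbkg had adjusted p-values from 0.0890 to 0.436.

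Transcriptional and nutrient regulators of autophagy gave 0 calls of 9 between the classes by limma. Of the 9, 0 had an unadjusted p under 0.05, where 2612 of all 7091 genes tested had one. Mitf, Flcn, Keap1 and Foxo3 had limma adjusted p-values from 0.167 to 0.431. With log2(TPM + 1) averaged over cells, Flcn (limma adjusted p = 0.0390) and Keap1 (0.0142) were called lower in neutrophils. Within neutrophils 3 of 8 were lower in granule-high cells and none higher, where 9.31% of all genes were lower and 2.32% higher. Tfeb, a transcription factor for lysosome genes, averaged 21.3 against 105 TPM (log2 fold -2.35 ± 0.61, limma adjusted p = 0.00784). Nfe2l2 (NRF2) averaged 114 against 376 TPM (-1.84 ± 0.41, limma adjusted p = 0.00213) and Sesn2, a stress-induced inhibitor of mTORC1, 16.2 against 77.9 TPM (-2.37 ± 0.69, limma adjusted p = 0.0199). After the rescaling all 3 missed the threshold (adjusted p = 0.0658, 0.0555 and 0.0806), with folds of -1.88, -1.40 and -2.12. Keap1 and Rragc had adjusted p-values of 0.162 and 0.260.

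Of 21 lysosome genes tested between the classes, 2 were higher and 4 lower in neutrophils, where 5.23% of all genes were higher and 17.4% lower. The membrane protein Cd63 averaged 476 against 116 TPM (log2 fold 2.86 ± 0.67, limma adjusted p = 0.0260) and the protease gene Ctsd 1598 against 1050 TPM (0.64 ± 0.20, limma adjusted p = 0.0371). Those lower included Npc2 (42.7 against 515 TPM), Ctsb (77.8 against 536) and Lamp1 (52.7 against 310). Among cells with 1500 to 3000 genes above 0, 0 of 5660 genes tested were called lower, so these lower calls did not hold there. Within neutrophils 1 of 20 was higher and 2 were lower in granule-high cells. Cd63 was higher at 614 against 276 TPM, Ctsd lower at 720 against 2486 TPM (-1.79 ± 0.18, limma adjusted p = 2.07e-09), and Rab7 lower at 310 against 585 TPM, a call lost after the rescaling (adjusted p = 0.303). Ctsl and Scarb2 had adjusted p-values of 0.0638 and 0.131. When log2(TPM + 1) was averaged over cells, Ncoa4 (limma adjusted p = 0.00390), Cd63 (0.00257) and Ctsd (0.0370) were still called within neutrophils, and the other genes of these lists called above were not.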

How the data were processed

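The authors deposited TPM per gene for each cell. RSEM and mm10 are named in the labels, per the submitters' processing notes; aligner, annotation and versions: not given in the sources used here. TPM keeps no depth, so genes above 0 per cell stood in for it, and each precision statement covers counting error or the spread between 2 replicates only. Every cell had at least 500 genes above 0 and none was removed; no doublet caller was run.

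TPM was averaged over the cells of a class and replicate and compared as log2(mean TPM + 1) by limma 3.58.1 in R 4.3.3, with its trend and robust options, a block for replicate and 1 residual degree of freedom, so that errors lean on the variance limma takes from all genes. The design fixed the block because both classes come from the same replicates. Genes entered with a mean of at least 5 TPM and values above 0 in at least 10 cells. Folds on this scale understate changes of low genes. The fit was tried on simulated data with equal noise for all genes and changes larger than any member's fold. That trial does not tell how well changes of the members' size are found. Shares, levels and correlations (Python 3.11.15, scipy 1.17.1) have no test. Named genes are all members, for other lists the 4 genes with the largest folds and those called, and the 3 most alike.

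Members and lists were chosen with earlier results of these data known. Of 245 list genes, 5 were found under older names and 4 (Hbb-bt, Ighm, Ly6g, Trac) were not matched. SmartSeq2 marks no strand and has no molecular identifiers. Of the 50-base runs in GENCODE transcripts, 15.5% of those of Sqstm1 are shared with the overlapping Mrnip, 12.2% of Gabarapl2 and 6.01% of Map1lc3b with other genes, and 0% of Gabarap, Nbr1 and Map1lc3a. 1 lysosome gene that the rule would name is not reported here.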

Additional observations from a re-analysis of the deposited data

Results flagged for a closer look

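Over the neutrophils of the 4 plates, Tax1bp1 on plate 2 averaged 144 TPM, far from the other plates (229 to 243 TPM). Map1lc3b on plate 4 averaged 706 TPM, below the 791 to 806 TPM of the other plates. A gap of such a size relative to the range arises by chance in about 1 of 20 sets of 4 values (5%), and levels and shares of 10 genes in 2 classes were examined.

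Gabarapl2 was higher in granule-high than in granule-low neutrophils on both plates of replicate 1 (log2 folds of 0.32 and 0.14) and lower on both plates of replicate 2 (-1.17 and -0.14). The difference between the replicates was not tested.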

How the results depend on the processing

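Map1lc3b was lower in granule-high neutrophils under all 14 alternatives (log2 folds of -2.41 to -1.06) and called in 11 of the 12 with a test; with no filter on low values (adjusted p = 0.212) no gene was called, although 1104 had an unadjusted p under 0.05. Between neutrophils and other cells it ran from -0.20 to 1.07 and was called in 4 of 13.

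Calls between neutrophils and other cells were 371 higher and 1231 lower. They were 0 and 0 with no filter (2313 at an unadjusted p under 0.05) and 3 and 0 among cells with 1500 to 3000 genes. Genes lower numbered 2704 with logs averaged over cells and 700 after rescaling; genes higher numbered 247 with no replicate block and 145 at a threshold of 50000 TPM. The share of calls that were higher went from 23.2% to 39.8% with rescaling and to 12.2% with logs averaged. Members called higher were 1 after rescaling, at a threshold of 1000 TPM, against cells with monocyte markers and without cells from 1000 to 50000 TPM. Members called lower were 1 with logs averaged and in the last of these. The last alternative, and neutrophils with 1500 to 3000 genes, were chosen after seeing the data.

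Calls between granule-high and granule-low neutrophils were 126 higher and 506 lower. They were 57 and 230 at a pseudocount of 0.1, 0 and 0 with no filter, 65 and 249 with no replicate block, 55 and 279 with 2 classes in place of 3, and 21 and 77 with 1500 to 3000 genes. Genes lower numbered 148 with logs averaged, 238 after rescaling and 300 without cycling cells, and genes higher 228 with the score not adjusted. The share of calls that were higher went from 19.9% to 39.4% with rescaling, 54.6% with logs averaged and 32.9% with the score not adjusted. Members called lower fell from 2 to 1 at a pseudocount of 0.1, with logs averaged, averages per plate, no replicate block, at least 1000 genes per cell, rescaling, 2 classes and 1500 to 3000 genes, and to 0 with no filter.

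Directions turned for uncalled folds and, within neutrophils, for Gabarap. Between neutrophils and other cells, Calcoco1 was -0.0044 at a pseudocount of 10, -0.30 with logs averaged, -0.25 at 1000 TPM, -0.74 with 1500 to 3000 genes and -0.12 without cells from 1000 to 50000 TPM. Tax1bp1 was 0.13 per plate, 0.24 rescaled, 0.88 at 1000 TPM, 0.93 with monocyte markers, 0.67 with 1500 to 3000 genes and 0.72 without the middle cells. Sqstm1 was 0.14 per plate and 0.25 rescaled; at 50000 TPM Map1lc3a was -1.03 and Map1lc3b -0.022, and with 1500 to 3000 genes Map1lc3b was -0.20. Within neutrophils, logs averaged gave Sqstm1 0.93, Tax1bp1 0.51, Map1lc3a 0.12, Gabarap 0.013 and Gabarapl2 1.07; rescaling gave Sqstm1 0.13, Tax1bp1 0.11 and Gabarapl2 0.20. Calcoco1 was -0.20 per plate, -0.11 with 2 classes, -1.47 with the score not adjusted, -1.32 without cycling cells and -1.10 with 1500 to 3000 genes, where Sqstm1 was 0.28. The causes were not tested.

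The number of members above 0 in at least 25% of cells was 5 to 6 in neutrophils and 6 to 7 in the other cells over all alternatives, those leaving out a replicate included. With 1 replicate left out there is no test; between classes Sqstm1 was 0.32 without replicate 2, and Calcoco1 -0.29 and Map1lc3a -0.36 without replicate 1, and within neutrophils Tax1bp1 was 0.23 and Gabarapl2 0.22 without replicate 2, all of another sign than with both. Depth is unknown, so a gene listed at 0 in a cell may have been missed.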
